A study of Mus musculus with 16 samples.

Results

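The interferon response genes described here are a list of 37 genes given by symbol, all of which were found in the deposited table of depth-normalized reads with a mean of at least 10 reads over all libraries. They are 37 of the 17159 genes in that table, and the Stat genes were left out. By role they comprise 6 sensors of viral nucleic acid and their helpers, 3 interferon regulatory factors, 16 antiviral effectors, 4 genes of ISG15 conjugation and ADP-ribosylation, 6 other interferon-induced genes and 2 genes of antigen presentation. They were measured by RNA sequencing in CD8+ T cells of C57BL/6 mice that had first been stimulated through CD3 and CD28 for 2 days and were then kept for 36 h in 1 of 4 media, with 4 libraries per medium. The media were B16F10 supernatant with methionine added (B16F10 being a melanoma line of the mouse), called supplemented supernatant below, the same supernatant without addition, fresh medium lacking methionine, and fresh medium with methionine, called complete fresh medium. The activation was shared by all 16 libraries, and the labels name no interferon treatment. The labels do not give the amount of methionine in any medium, nor whether the 4 libraries of a medium came from separate animals or cultures, so the p-values measure the spread between libraries.

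Interferons bind receptors at the cell surface and act through the kinases JAK1, JAK2 and TYK2 on STAT proteins. Type I interferons lead to a complex of STAT proteins with IRF9 that binds the interferon-stimulated response element (ISRE) in the promoters of antiviral genes, while interferon gamma acts mainly at gamma-activated sites (GAS), where Irf1 is a classical target. The products detect viral RNA, block viral replication, conjugate the ubiquitin-like protein ISG15 to other proteins and raise antigen presentation. CD8+ T cells both respond to interferons and make interferon gamma when activated.

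Each value below is a read count that was divided by a depth factor of its library. The reads underlying these values numbered 25.8 M to 42.3 M per library. Calls rest on limma, fitted over 12469 genes, with Benjamini-Hochberg adjusted p below 0.05, and fold changes are on the scale log2(value + 1), which understates the change of genes near 0 reads. Calls were frequent in this series: 85.6% of all genes tested were called between methionine-free and complete fresh medium, so a call on its own sets no gene apart. In bulk RNA, fewer cells of a type and less RNA per cell cannot be told apart.

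On methionine removal from fresh medium, some interferon response genes rose and others fell, as did all genes tested. Of the 37 genes, 21 were higher and 14 lower in methionine-free fresh medium than in complete fresh medium, and 2 were not called. Over all genes tested, 43.3% were higher and 42.3% lower. The members' median log2 fold change was 0.26, against 0.0092 over all genes. The genes that rose at least 2-fold were Mx2, Ifit1, Rtp4, Isg15, Mx1, Ifit3, Ifi44, Oasl2, Ifi35 and Oas2 in descending order. Those that fell at least 2-fold were Dhx58, Oas3, Samd9l and Rsad2. Both sets hold classical targets of type I interferon. The libraries of the 2 media did not overlap for 35 of the 37 members, against 81.3% of all genes tested. The heatmap of all 16 libraries shows both sets.

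**Figure D1:**
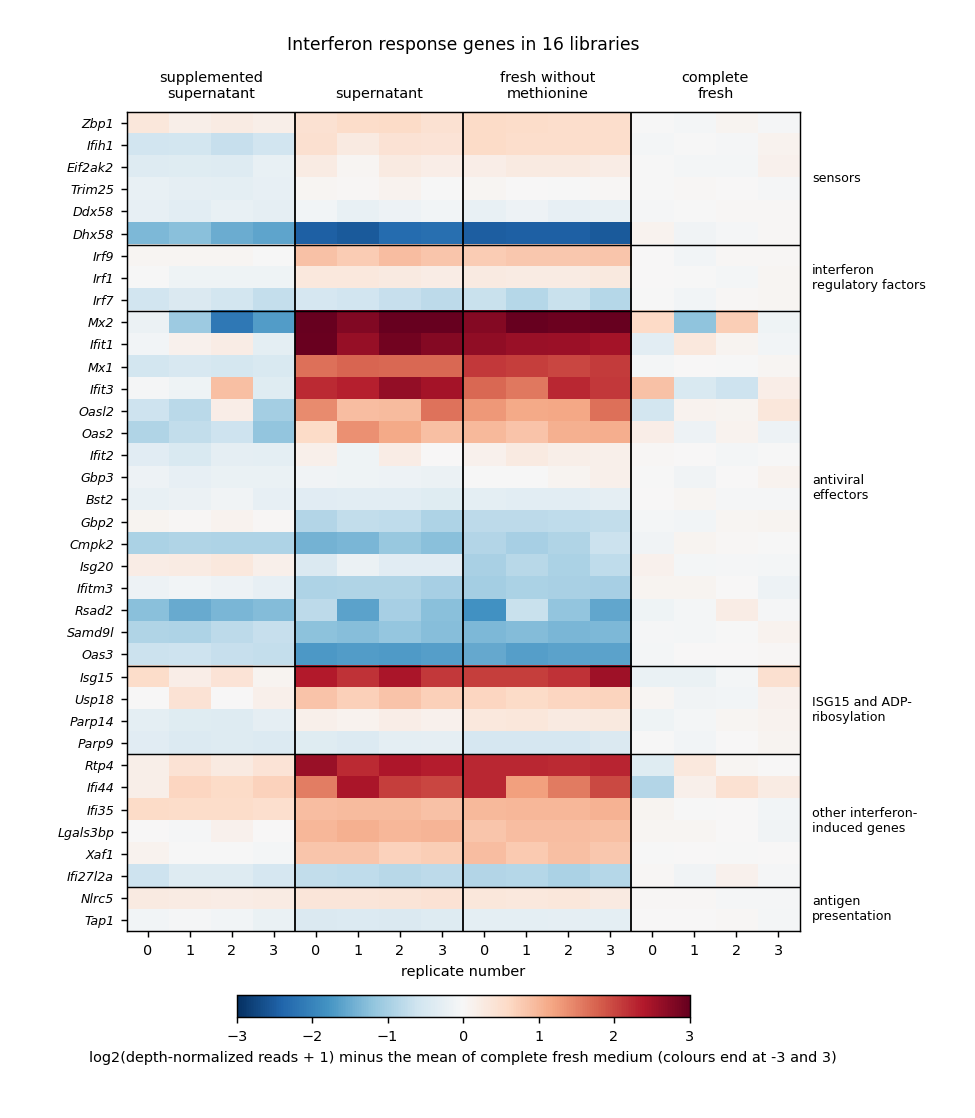
Level of each of the 37 genes (rows, grouped by role) in each library (columns, grouped by medium), as log2(depth-normalized reads + 1) minus the mean of complete fresh medium. The block that runs red from Mx2 to Oas2 and the block that runs blue from Gbp2 to Oas3 hold antiviral effectors that moved in opposite directions in the 8 libraries without added methionine.

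In melanoma supernatant, compared with the same complete fresh medium libraries, 20 members were higher, 15 lower and 2 not called, where 85.5% of all genes were called, 43.0% higher and 42.5% lower. The median of the members was 0.20 and that of all genes 0.0011. The libraries did not overlap for 33 members, against 80.0% of all genes. At least 2-fold higher were Mx2 (2.99), Ifit1 (2.80), Ifit3 (2.42), Rtp4 (2.40), Isg15 (2.28), Ifi44 (2.02), Mx1 (1.71), Oasl2 (1.23) and Lgals3bp (1.02) on the log2 scale. At least 2-fold lower were Dhx58 (-2.38), Oas3 (-1.69), Cmpk2 (-1.30), Samd9l (-1.24) and Rsad2 (-1.16). This comparison and methionine removal share the 4 libraries of complete fresh medium. With the libraries scaled to their total reads, the median of all genes was 0.17 for methionine removal, 0.15 for supernatant over complete fresh medium and -0.14 for methionine addition, so that smaller changes hold relative to the scaling. Under that scaling Ddx58 (0.016 against -0.13 as reported) and Gbp3 (0.0082 against -0.14) changed sign in supernatant over complete fresh medium and were not called.

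Methionine added to the supernatant moved more members down than up. In supplemented supernatant 23 members were lower and 10 higher than in supernatant, and 4 were not called, where 83.7% of all genes were called, 41.8% lower and 41.8% higher. The libraries did not overlap for 33 members, against 78.1% of all genes. Their median log2 fold change was -0.38, against -0.0041 over all genes. The libraries of this comparison and those of methionine removal in fresh medium have none in common. The 21 genes that rose on removal were all among the 23 that fell on addition, 100% of the first list and 91.3% of the second. Of the 14 that fell on removal, 10 were among the 10 that rose on addition, 71.4% of the first list and 100% of the second. Over all genes the corresponding shares were 82.7% and 85.6% for genes higher on removal and lower on addition, and 83.1% and 84.0% for the reverse. Ddx58 was lower on removal and lower on addition, and Irf7, Parp9 and Rsad2 were lower on removal and not called on addition.

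**Figure D2:**
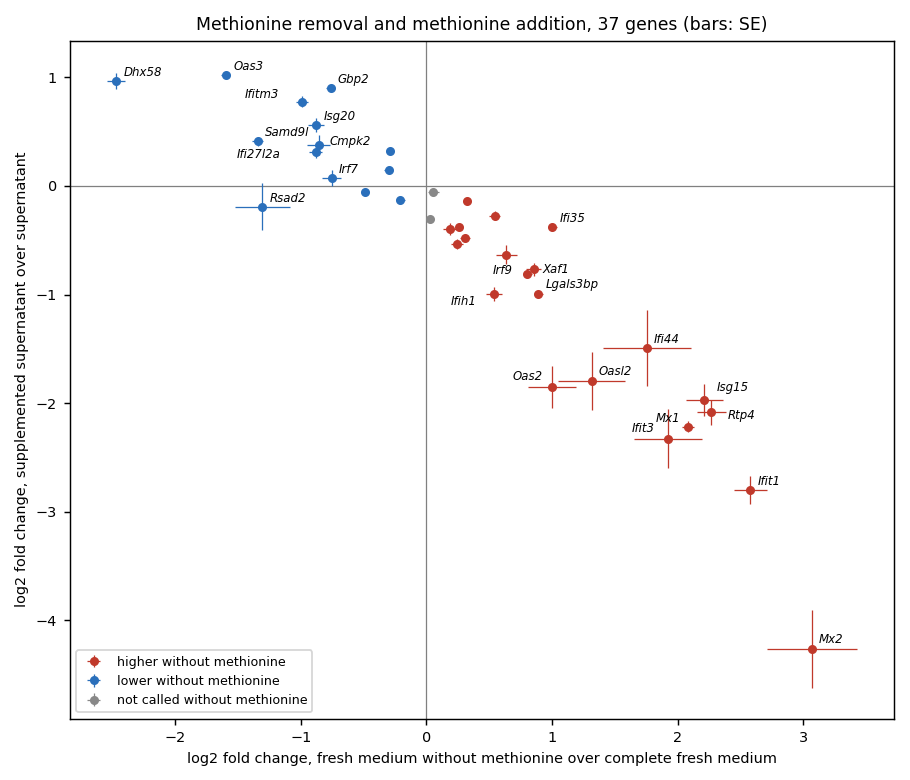
Log2 fold change on methionine removal in fresh medium (horizontal axis) against that on methionine addition to supernatant (vertical axis), 1 point per gene with SE bars from limma. Mx2, Ifit1, Rtp4 and Isg15 lie at the lower right and Dhx58 and Oas3 at the upper left, and the 2 axes rest on separate libraries.

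Supplemented supernatant and complete fresh medium both held methionine, and most members were called between them. In supplemented supernatant 22 members were lower, 5 higher and 10 not called, where 65.0% of all genes were called, 32.5% lower and 32.5% higher. The libraries did not overlap for 22 members, against 56.1% of all genes. The median was -0.20, against -0.0033 over all genes. Dhx58 (-1.42), Rsad2 (-1.36), Mx2 (-1.28), Cmpk2 (-0.92), Oas2 (-0.86) and Samd9l (-0.83) had the lowest log2 fold changes, all called. Those higher were Ifi35 (0.55), Rtp4 (0.32), Nlrc5 (0.25), Isg20 (0.24) and Zbp1 (0.23), and the call of Rtp4 was lost without replicate 1 of supplemented supernatant (0.28, limma adjusted p 0.0508) or replicate 0 of complete fresh medium (0.19, limma adjusted p 0.127). Calls were gained without single libraries by Isg15, higher without replicate 3 of either medium (0.39 and 0.47), by Oasl2, lower without replicate 2 of supplemented supernatant (-0.82) or replicate 0 of complete fresh medium (-0.75), and by Usp18, higher without replicate 2 of supplemented supernatant (0.21).

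**Figure D3:**
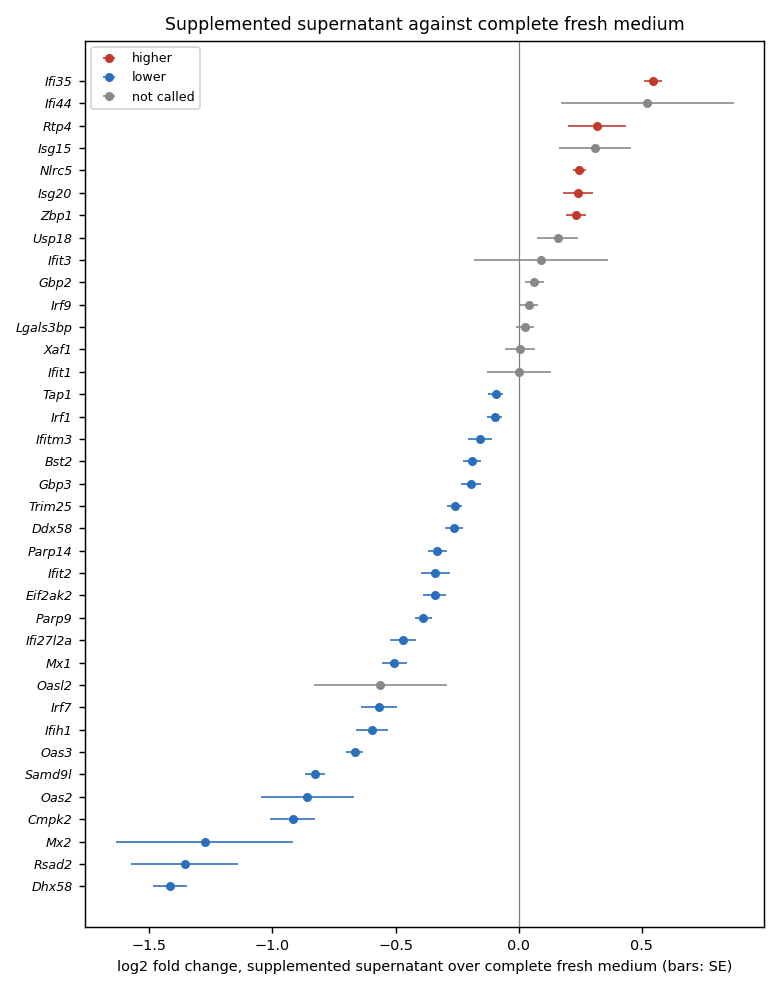
Log2 fold change of each gene in supplemented supernatant over complete fresh medium with its SE from limma. The 22 genes called lower reach from Tap1 at -0.094 to Dhx58 at -1.42, and Ifi35 at 0.55 is the highest.

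Supernatant and methionine-free fresh medium, neither with added methionine, had the fewest members called of the 5 pairs of media compared. In supernatant 3 members were higher, 5 lower and 29 not called, where 26.8% of all genes were called, 14.0% higher and 12.9% lower. The libraries did not overlap for 14 members, against 28.7% of all genes. Isg20 (0.56), Parp9 (0.15) and Lgals3bp (0.13) were higher, and Cmpk2 (-0.44), Mx1 (-0.37), Gbp3 (-0.19), Parp14 (-0.16) and Tap1 (-0.12) were lower. Without replicate 1 of supernatant 5 members were called higher, Ddx58 (0.11) and Samd9l (0.12) in addition, and a fit to the libraries of these media alone called 7 higher. Of all 12469 genes these fits called 1642 and 1950 higher, in the same order. The call of Lgals3bp was lost without replicate 0 of methionine-free fresh medium (0.11, limma adjusted p 0.0547).

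The effect of methionine was also compared between supernatant and fresh medium. The measure was the log2 fold change of supernatant over supplemented supernatant minus that of methionine-free over complete fresh medium. Methionine was added to the supernatant, not removed from it. The measure was positive for 20 members and negative for 4, and 13 were not called. Over all genes 52.6% were called, 25.0% positive and 27.6% negative. A positive value can be a smaller fall, as for Dhx58, which was lower without added methionine in both. With the FPKM values the counts were 3 and 0, and with the FPKM values and a replicate block 13 and 2. Over the 12449 genes tested with FPKM they were 546 and 396, and with the block 2140 and 2123. The differences were highest for Dhx58 (1.51 ± 0.099 SE), Rsad2 (1.5001 ± 0.31 SE), Mx2 (1.19 ± 0.51 SE) and Samd9l (0.93 ± 0.058 SE). They were negative for Ifi35 (-0.62), Zbp1 (-0.27), Nlrc5 (-0.18) and Gbp2 (-0.13). Of 16 fits that each left out 1 library, the call of Mx2 was lost in 11 (0.90 to 1.28, limma adjusted p 0.0510 to 0.124), that of Ifit2 in 8 (0.15 to 0.21, limma adjusted p 0.0503 to 0.111), that of Gbp2 in 7 (-0.13 to -0.10, limma adjusted p 0.0607 to 0.108) and that of Irf1 without replicate 0 of supernatant (0.10, limma adjusted p 0.0533). Lgals3bp was called in 2 of them (0.14).

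Among the sensors, Dhx58 had the largest change. It encodes LGP2, a helicase that regulates RNA sensing by its relatives RIG-I and MDA5. Dhx58 had 594, 629.5, 534 and 499.6 reads in supplemented supernatant, 275, 263, 305 and 309.9 in supernatant, 269, 275, 272 and 263 in methionine-free fresh medium and 1611, 1399.8, 1465 and 1538 in complete fresh medium. The media without added methionine were low, supplemented supernatant was intermediate and complete fresh medium high, with no overlap between these 3 levels. Dhx58 averaged 269.9 ± 5.04 reads in methionine-free and 1503 ± 91.2 in complete fresh medium (SD, n = 4 each; log2 fold change -2.47 ± 0.070 SE, limma adjusted p 8.19e-26). Its log2 fold change was -2.38 in supernatant over complete fresh medium and 0.97 ± 0.070 SE on methionine addition (limma adjusted p 1.99e-14). An annotated antisense gene, Dhx58os, overlaps its exons on the other strand, and whether counting used strand is not given in the sources used here.

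Ifih1, which encodes the long double-stranded RNA sensor MDA5, moved the other way. Ifih1 had 279, 286, 259 and 281 reads in supplemented supernatant, 585, 503, 566 and 554 in supernatant, 624, 603, 602 and 605 in methionine-free fresh medium and 400.4, 415, 407 and 451 in complete fresh medium. It was lowest in supplemented supernatant and highest in methionine-free fresh medium, and the libraries of the 4 media did not overlap. Ifih1 rose on methionine removal (log2 fold change 0.54 ± 0.064 SE, limma adjusted p 2.03e-09) and fell on methionine addition (log2 fold change -0.99 ± 0.064 SE, limma adjusted p 7.31e-16). Zbp1, a sensor of nucleic acid in the Z conformation that can start cell death, behaved differently in supplemented supernatant. Zbp1 had 1606, 1437, 1502 and 1450.2 reads in supplemented supernatant, 1753, 1859, 1888 and 1750.3 in supernatant, 1886, 1856, 1836 and 1848 in methionine-free fresh medium and 1266, 1226, 1357 and 1252 in complete fresh medium. Its libraries in all other media lay above those in complete fresh medium. Zbp1 rose by 0.54 on removal, by 0.51 in supernatant and by 0.23 in supplemented supernatant, each against complete fresh medium (limma adjusted p 1.09e-13, 6.12e-13 and 1.41e-05).

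The remaining sensor genes changed less than Zbp1 on removal. Eif2ak2, the kinase PKR that halts translation on double-stranded RNA, averaged 1742 ± 99.9 reads in supplemented supernatant and 2528 ± 161 in supernatant (SD, n = 4 each), a log2 fold change of -0.54, and rose by 0.24 on removal. Ddx58, which encodes the RNA sensor RIG-I, averaged 2210.1 ± 62.8 reads in methionine-free and 2553 ± 67.0 in complete fresh medium (SD, n = 4 each), and its call on removal (-0.21) was lost with total-read scaling (-0.048, limma adjusted p 0.221). Trim25, a ubiquitin ligase that activates RIG-I, was not called on removal (0.025, limma adjusted p 0.437) but was called higher with total-read scaling (0.19). In supernatant over complete fresh medium it was not called (0.049, limma adjusted p 0.135), while total-read scaling (0.19) and quantile normalization (0.078) gave a call. It was lower in supplemented supernatant (3427 ± 61.7 reads) than in supernatant (4243 ± 129.7 reads; SD, n = 4 each; log2 fold change -0.31 ± 0.030 SE, limma adjusted p 4.85e-11).

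Of the 3 interferon regulatory factors, Irf9 and Irf1 were higher in the media without added methionine, by different amounts, and Irf7 followed another pattern. Irf9, the DNA-binding subunit of the complex that type I interferons activate, was high in the media without added methionine. Irf9 had 1836, 1844, 1854 and 1756 reads in supplemented supernatant, 3277, 3015, 3364 and 3172 in supernatant, 3018, 3105, 3113 and 3135 in methionine-free fresh medium and 1794, 1675, 1805 and 1819 in complete fresh medium. The libraries of supplemented supernatant and complete fresh medium overlapped and all lay below those of the other media. Irf9 rose on removal (log2 fold change 0.80 ± 0.037 SE, limma adjusted p 8.51e-20) and fell on addition (log2 fold change -0.81 ± 0.037 SE, limma adjusted p 7.85e-20), and in supplemented supernatant it was not called against complete fresh medium (0.040, limma adjusted p 0.353). Irf9 shares exon bases with Rnf31 on the same strand.

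Irf7, which in virus-infected cells amplifies type I interferon production, was high in complete fresh medium alone. Irf7 had 413, 453, 421 and 377 reads in supplemented supernatant, 435, 413, 382 and 356 in supernatant, 387, 342, 389 and 342 in methionine-free fresh medium and 612, 580.0, 634 and 638 in complete fresh medium. The libraries of the first 3 media overlapped, and those of complete fresh medium lay above all of them. It fell by 0.76 on removal (limma adjusted p 1.83e-11) and was not called on methionine addition (0.070, limma adjusted p 0.367). Supplemented supernatant stayed below complete fresh medium (log2 fold change -0.57 ± 0.072 SE, limma adjusted p 2.88e-08). Irf7 has an exon overlapping Phrf1 on the other strand.

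Irf1, a classical target of interferon gamma that also acts in CD8+ T cell differentiation, was abundant in all media. Irf1 had 7305, 6774, 6809.9 and 6825 reads in supplemented supernatant, 9213, 9185, 8983 and 8649 in supernatant, 8887, 8772, 8795 and 9126 in methionine-free fresh medium and 7425, 7401, 7169 and 7656 in complete fresh medium. It was higher without added methionine, with overlap only between supplemented supernatant and complete fresh medium and between the media without addition. Irf1 rose by 0.26 on removal and by 0.28 in supernatant over complete fresh medium, and fell by 0.38 on addition (limma adjusted p 1.35e-09, 3.12e-10 and 2.67e-13).

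**Figure D4:**
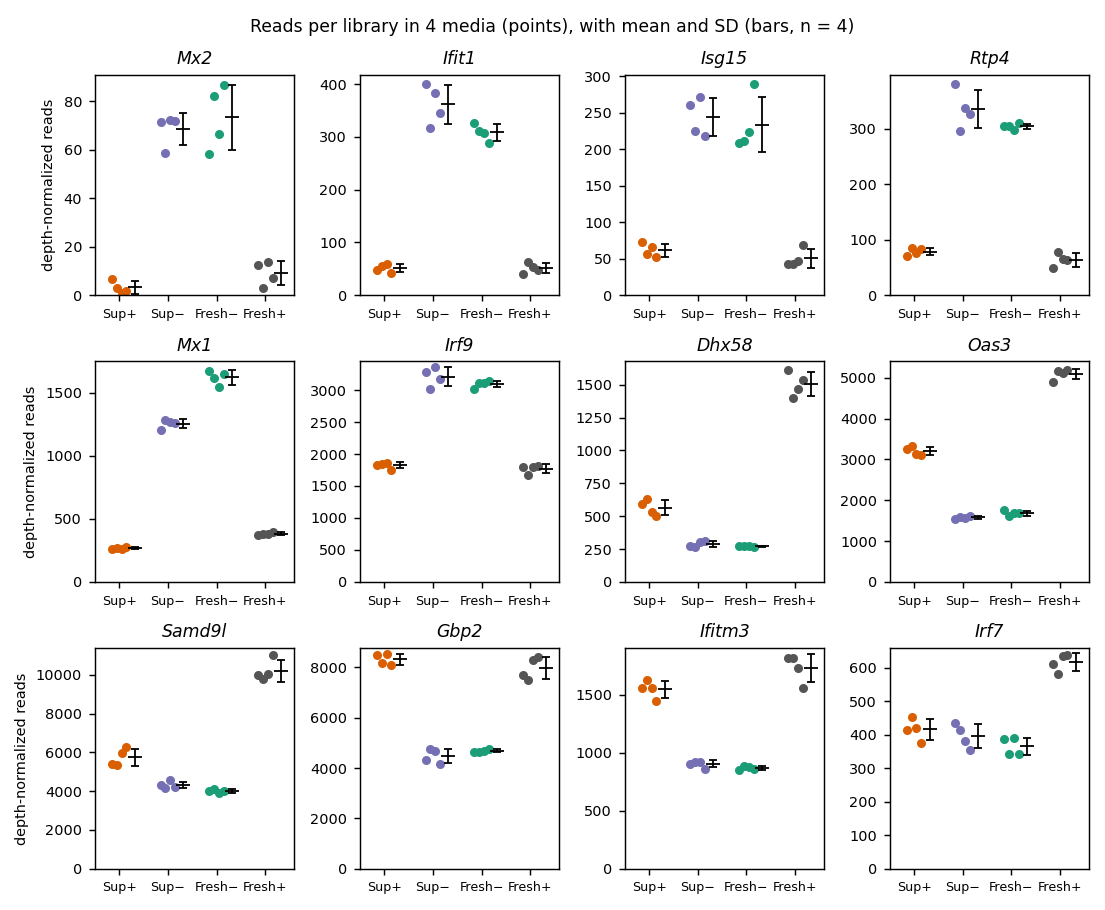
Depth-normalized reads of 12 genes in each library (points) with the mean and SD of 4 libraries (bars), in supplemented supernatant (Sup+), supernatant (Sup−), methionine-free fresh medium (Fresh−) and complete fresh medium (Fresh+). The first 6 genes are high in Sup− and Fresh−, Dhx58 to Ifitm3 are low there, and Irf7 is high in Fresh+ alone.

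Of the 16 antiviral effectors, 7 rose, 8 fell and 1 was not called on methionine removal, shares near those of all genes tested (43.3% higher and 42.3% lower). Mx2, which encodes a dynamin-like antiviral GTPase and is annotated as a polymorphic pseudogene on the reference genome of these mice, had the largest rise of all members. Mx2 had 6.73, 3.09, 0.979 and 1.73 reads in supplemented supernatant, 71.5, 58.6, 72.4 and 71.8 in supernatant, 58.2, 82.1, 66.4 and 86.7 in methionine-free fresh medium and 12.3, 2.82, 13.5 and 6.97 in complete fresh medium. All 8 libraries without added methionine lay above all 8 with it, and the level with it was a few reads, so its folds depend on the added 1 read. Mx2 rose on removal (log2 fold change 3.07 ± 0.36 SE, limma adjusted p 1.94e-09) and fell on addition (log2 fold change -4.26 ± 0.36 SE, limma adjusted p 9.95e-13). Its relative Mx1, whose allele in most laboratory strains of mice is known to be defective, averaged 269 ± 7.83 reads in supplemented supernatant, 1256 ± 35.5 in supernatant, 1623 ± 56.3 in methionine-free and 382 ± 11.1 in complete fresh medium (SD, n = 4 each).

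Oas3 fell most among the effectors. It encodes a synthetase of 2′-5′ oligoadenylate, the messenger that activates RNase L. Oas3 had 3255, 3320.5, 3134 and 3109 reads in supplemented supernatant, 1549, 1582, 1575 and 1620.4 in supernatant, 1758, 1614, 1677 and 1676 in methionine-free fresh medium and 4904, 5168, 5105 and 5176 in complete fresh medium. The media without added methionine were lowest, supplemented supernatant stood between, and complete fresh medium was highest, with no overlap of these 3 levels. Oas3 fell on removal (log2 fold change -1.60 ± 0.035 SE, limma adjusted p 6.07e-29) and rose on addition (log2 fold change 1.02 ± 0.035 SE, limma adjusted p 2.70e-23). Another member of its family moved against it: Oas2 averaged 71.0 ± 5.15 reads in methionine-free and 35.1 ± 4.63 in complete fresh medium (SD, n = 4 each), a log2 fold change of 1.002 (limma adjusted p 1.41e-05). Oasl2, an OAS-like gene, also rose (1.32), with 43.9 ± 7.68 reads in methionine-free and 17.3 ± 4.43 in complete fresh medium (SD, n = 4 each). Oas2 and Oas3 lie side by side on mouse chromosome 5, and close relatives may share reads.

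The IFIT genes, whose proteins bind foreign RNA and block its translation, lie together on chromosome 19 and all rose on removal. Ifit1 averaged 51.2 ± 8.03 reads in supplemented supernatant, 362 ± 37.3 in supernatant, 309 ± 15.7 in methionine-free and 51.4 ± 9.82 in complete fresh medium (SD, n = 4 each). Its log2 fold change was 2.58 on removal and -2.80 on addition (limma adjusted p 5.97e-19 and 7.99e-20). Ifit3 averaged 64.1 ± 14.5 reads in methionine-free and 17.4 ± 9.28 in complete fresh medium (SD, n = 4 each; log2 fold change 1.92). Ifit2 averaged 1169 ± 53.8 reads in methionine-free and 1025 ± 27.7 in complete fresh medium (SD, n = 4 each), a smaller change (0.19). In supernatant Ifit2 was not called against complete fresh medium (0.057, limma adjusted p 0.361), while total-read scaling (0.20) and leaving out replicate 1 of supernatant (0.12, limma adjusted p 0.0401) gave a call.

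The effectors that fell on removal act at several points of infection. Samd9l, a restriction factor of poxviruses, averaged 5752 ± 444 reads in supplemented supernatant, 4324 ± 167 in supernatant, 4015 ± 86.7 in methionine-free and 10204 ± 555 in complete fresh medium (SD, n = 4 each). Rsad2 (viperin) makes a chain-terminating nucleotide from a substrate that its neighbour on chromosome 12, Cmpk2, can supply. Rsad2 averaged 32.3 ± 11.9 reads in methionine-free and 78.0 ± 8.89 in complete fresh medium (log2 fold change -1.31), and Cmpk2 178 ± 18.7 in methionine-free and 322 ± 18.0 in complete fresh medium (-0.86; SD, n = 4 each). Rsad2 was not called on methionine addition (-0.19, limma adjusted p 0.405), and in supplemented supernatant it averaged 29.8 ± 2.25 reads. Samd9l, Rsad2 and Cmpk2 were all called lower in supplemented supernatant than in complete fresh medium.

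Ifitm3, Gbp2 and Isg20 fell on removal and rose on addition. Ifitm3, a membrane protein that blocks fusion of viruses with the cell, averaged 1549 ± 73.7 reads in supplemented supernatant, 904 ± 30.3 in supernatant, 870.3 ± 16.2 in methionine-free and 1731 ± 122 in complete fresh medium (SD, n = 4 each). Gbp2, a guanylate-binding protein of the interferon gamma response, averaged 8323 ± 216 reads in supplemented supernatant and 4469.6 ± 277 in supernatant (SD, n = 4 each; log2 fold change 0.90 ± 0.038 SE, limma adjusted p 7.83e-21), and was not called between supplemented supernatant and complete fresh medium (0.064, limma adjusted p 0.139). It was called higher there with quantile normalization (0.086) and without replicate 3 of complete fresh medium (0.090, limma adjusted p 0.0401). Isg20, an exonuclease that degrades RNA, averaged 964 ± 47.5 reads in supplemented supernatant and 816 ± 49.7 in complete fresh medium (SD, n = 4 each; log2 fold change 0.24 ± 0.061 SE, limma adjusted p 0.00104). Bst2 (tetherin), which holds virus particles at the cell surface, fell by 0.30 on removal, and its rise of 0.15 on addition was lost with total-read scaling (0.014, limma adjusted p 0.728). Gbp3, a relative of Gbp2, was not called on removal (0.056, limma adjusted p 0.189), and was called higher with total-read scaling (0.22) and without replicate 3 of complete fresh medium (0.088, limma adjusted p 0.0427).

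Promoter sequences from RefSeq on GRCm38.p6, 250 bases before to 50 after the annotated start, were matched by symbol for 26 of the 37 members. They are shown for genes at both ends of the response, to let the same motif be seen in genes that moved apart. By their rank on removal they are Ifit1 among the 3 highest and Oas3 and Samd9l among the 3 lowest, with Irf7. Mx2, Rtp4 and Dhx58 had no entry, and Isg15 was added after its values were seen. Capitals mark matches to GAAANNGAA, the core of the ISRE, on either strand, and each sequence reads 5′ to 3′ in the direction of its gene.
Ifit1: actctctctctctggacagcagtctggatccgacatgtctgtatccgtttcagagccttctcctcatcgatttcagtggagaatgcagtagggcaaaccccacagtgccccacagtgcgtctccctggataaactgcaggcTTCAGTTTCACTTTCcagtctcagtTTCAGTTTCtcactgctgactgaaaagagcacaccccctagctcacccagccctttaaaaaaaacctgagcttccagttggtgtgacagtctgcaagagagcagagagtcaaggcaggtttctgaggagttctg
Isg15: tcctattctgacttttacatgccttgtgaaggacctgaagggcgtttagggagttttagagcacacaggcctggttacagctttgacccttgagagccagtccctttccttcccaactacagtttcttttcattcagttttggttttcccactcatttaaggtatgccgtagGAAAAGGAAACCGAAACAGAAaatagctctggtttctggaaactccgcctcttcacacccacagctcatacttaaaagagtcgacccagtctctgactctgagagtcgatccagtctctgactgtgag
Oas3: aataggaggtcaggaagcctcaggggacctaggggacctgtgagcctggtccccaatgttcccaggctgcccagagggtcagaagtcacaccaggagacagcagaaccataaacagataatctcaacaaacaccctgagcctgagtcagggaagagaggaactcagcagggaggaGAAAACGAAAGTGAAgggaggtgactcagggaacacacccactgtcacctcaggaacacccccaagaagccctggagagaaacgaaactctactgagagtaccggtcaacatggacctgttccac
Samd9l: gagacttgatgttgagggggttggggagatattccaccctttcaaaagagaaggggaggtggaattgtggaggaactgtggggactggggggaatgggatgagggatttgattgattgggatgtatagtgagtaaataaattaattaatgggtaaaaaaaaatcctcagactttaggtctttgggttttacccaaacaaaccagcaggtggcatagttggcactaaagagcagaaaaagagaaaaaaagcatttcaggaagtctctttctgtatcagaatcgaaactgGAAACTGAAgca
Irf7: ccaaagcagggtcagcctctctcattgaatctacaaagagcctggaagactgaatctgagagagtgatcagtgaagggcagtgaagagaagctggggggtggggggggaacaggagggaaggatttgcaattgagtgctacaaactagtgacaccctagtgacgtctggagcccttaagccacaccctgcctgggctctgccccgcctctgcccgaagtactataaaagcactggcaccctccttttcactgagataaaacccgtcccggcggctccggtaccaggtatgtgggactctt

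The windows lie at chr19:34640639-34640938 (plus strand) for Ifit1, chr4:156200769-156201068 (minus strand) for Isg15, chr5:120777610-120777909 (minus strand) for Oas3, chr6:3399522-3399821 (minus strand) for Samd9l and chr7:141266375-141266674 (minus strand) for Irf7. Ifit1 has 3 matches, beginning 109, 103 and 84 bases before its start, and Isg15 has 3 overlapping ones, beginning 78, 72 and 66 bases before. Oas3, which fell, has 2 overlapping matches that begin 75 and 69 bases before its start, and Samd9l has 1 that begins 38 bases after. The Irf7 window holds no match to these letters. Of the 26 members with a promoter, 15 (57.7%) hold at least 1 match in a window, against 9.8% of 27025 genes with an entry. Among those that rose on removal it was 6 of 13 (46.2%), and among those that fell it was 7 of 11 (63.6%). For TTCNNNGAA, the GAS, searched in the same way, the share was 7 of 26 members (26.9%), 4 of 13 that rose, 3 of 11 that fell and 9.6% of all genes with an entry, among the members Irf1 and Ifitm3. In Bst2 and Ifitm3 a match of each motif overlapped. A match describes letters and not a bound site.

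Of the 4 genes of ISG15 conjugation and ADP-ribosylation, 3 rose and 1 fell on removal, too few to set against the 43.3% and 42.3% of all genes. Isg15 itself, a ubiquitin-like modifier, was high in the media without added methionine. Isg15 had 72.2, 56.6, 65.6 and 51.9 reads in supplemented supernatant, 260.5, 225, 271 and 218 in supernatant, 209, 212, 224 and 289.6 in methionine-free fresh medium and 42.5, 42.3, 46.8 and 68.8 in complete fresh medium. All 8 libraries without added methionine lay above all 8 with it. Isg15 rose on removal (log2 fold change 2.21 ± 0.14 SE, limma adjusted p 1.04e-15) and fell on addition (log2 fold change -1.97 ± 0.14 SE, limma adjusted p 2.64e-14). Usp18, the protease that removes ISG15 and damps type I interferon signalling, averaged 364 ± 11.1 reads in methionine-free and 234 ± 18.6 in complete fresh medium (SD, n = 4 each; log2 fold change 0.64).

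Parp9, which forms a complex with the ubiquitin ligase DTX3L, fell. Parp9 had 3843, 3649, 3702 and 3648 reads in supplemented supernatant, 3780.4, 3671, 3942 and 4022 in supernatant, 3412, 3436, 3423 and 3568 in methionine-free fresh medium and 4825, 4578, 4915 and 5108 in complete fresh medium. Complete fresh medium was highest and methionine-free fresh medium lowest, and both supernatants overlapped. Methionine addition to supernatant gave no call (-0.054, limma adjusted p 0.148), though Parp9 was called lower with total-read scaling (-0.19) and without replicate 1 of supernatant (-0.077, limma adjusted p 0.0495). Parp9 fell by 0.49 on removal (limma adjusted p 1.15e-14), and it shares exon bases with Dtx3l on the other strand. Its relative Parp14, a mono-ADP-ribosyltransferase, rose by 0.31 on removal and fell by 0.48 on addition.

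Of the 6 other interferon-induced genes, 5 rose and 1 fell on removal, too few to set against the 43.3% and 42.3% of all genes. Rtp4, an interferon-induced chaperone of receptors, rose most. Rtp4 had 70.2, 84.3, 75.3 and 83.1 reads in supplemented supernatant, 381, 297, 338 and 326 in supernatant, 304, 305, 298 and 310.0 in methionine-free fresh medium and 48.1, 77.6, 64.8 and 62.7 in complete fresh medium. The media fell into a high pair and a low pair with a wide gap. Rtp4 rose on removal (log2 fold change 2.27 ± 0.12 SE, limma adjusted p 1.58e-18) and fell on addition (log2 fold change -2.08 ± 0.12 SE, limma adjusted p 2.09e-17). It shares exon bases with Gm45338 on the same strand. Lgals3bp, a secreted glycoprotein that binds galectins, averaged 3644 ± 191 reads in supplemented supernatant, 7253 ± 191 in supernatant, 6641 ± 209 in methionine-free and 3579.6 ± 187 in complete fresh medium (SD, n = 4 each). Xaf1, a promoter of apoptosis, Ifi35 and Ifi44 also rose on removal, by 0.85, 1.004 and 1.75 on the log2 scale. Ifi44 averaged 19.9 ± 6.59 reads in methionine-free and 5.29 ± 2.14 in complete fresh medium (SD, n = 4 each). Ifi27l2a, which encodes a small mitochondrial or nuclear envelope protein, fell. Ifi27l2a had 1031, 1209.7, 1204 and 1111 reads in supplemented supernatant, 942, 931, 883 and 910.5 in supernatant, 863, 866, 821 and 874 in methionine-free fresh medium and 1611, 1462, 1715 and 1526 in complete fresh medium. It was highest in complete fresh medium, the libraries of the 4 media did not overlap, and its log2 fold change on removal was -0.88 (limma adjusted p 7.71e-17).

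The 2 antigen presentation genes were among the most abundant members and moved in opposite directions by small amounts. Tap1 encodes a subunit of the transporter that loads peptides onto MHC class I. Tap1 had 20331, 21053, 20430.5 and 18845 reads in supplemented supernatant, 15949, 16242, 15940.3 and 16342 in supernatant, 17432, 17556, 17758 and 17467 in methionine-free fresh medium and 21825, 21572, 21879 and 20754 in complete fresh medium. Both media without added methionine were lower, and supplemented supernatant overlapped with complete fresh medium. The fall on removal (log2 fold change -0.29 ± 0.029 SE, limma adjusted p 5.26e-11) was lost with quantile normalization (-0.024, limma adjusted p 0.437), and Tap1 shares exon bases with Psmb9 on the other strand. Nlrc5, the transactivator of MHC class I genes, rose. Nlrc5 had 19499, 19088, 19024 and 19389 reads in supplemented supernatant, 20745, 20991, 21301 and 21956 in supernatant, 20676, 20253, 20550.3 and 19609 in methionine-free fresh medium and 16509.7, 16505, 15943 and 15953 in complete fresh medium. Every library of the other media was above every library of complete fresh medium, and the rise on removal was 0.32 ± 0.027 SE (limma adjusted p 7.09e-13).

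Levels of different genes can be compared only per length, from the deposited FPKM (fragments scaled to transcript length and library size). On that scale Tap1 was highest in every medium, with 219.8 ± 36.8 FPKM in supplemented supernatant, 168 ± 45.4 in supernatant, 174 ± 35.1 in methionine-free and 234 ± 28.5 in complete fresh medium (SD, n = 4 each). Irf1 stood at 120.0 ± 12.1 FPKM in methionine-free and 104 ± 3.37 in complete fresh medium, and Isg15 at 10.8 ± 0.518 in methionine-free and 2.64 ± 0.387 in complete fresh medium (SD, n = 4 each). Between 5 and 7 of the 37 members were under 1 FPKM in each medium, and over 100 FPKM were 5 in supplemented supernatant, 3 in supernatant, 2 in methionine-free and 6 in complete fresh medium. Low levels were found among genes with large rises: Mx2 had 0.890 ± 0.219 FPKM in methionine-free and 0.107 ± 0.0631 in complete fresh medium, and Ifit3 0.983 ± 0.253 in methionine-free and 0.274 ± 0.0907 in complete fresh medium. The genes that fell included Tap1, the highest of all, as well as Ifitm3 (62.1 ± 16.3 FPKM in methionine-free and 138 ± 35.4 in complete fresh medium) and the low Rsad2 (0.235 ± 0.100 FPKM in methionine-free and 0.537 ± 0.0649 in complete fresh medium; SD, n = 4 each).

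Genes that act upstream moved in both directions, as did all genes tested (43.3% higher and 42.3% lower). Of 16 listed interferons, receptors and kinases, 9 were tested, of which 3 rose and 5 fell on removal. Ifng, the interferon gamma gene, averaged 133 ± 9.87 reads in supplemented supernatant, 1548 ± 108 in supernatant, 916 ± 50.9 in methionine-free and 71.9 ± 9.15 in complete fresh medium (SD, n = 4 each). Jak1, the kinase bound to receptors for both interferon types, averaged 14787 ± 266 reads in methionine-free and 23063 ± 1041 in complete fresh medium (SD, n = 4 each), a log2 fold change of -0.64. Ifnb1, the interferon beta gene, had 0 reads in all 8 libraries of supernatant and supplemented supernatant, which allows up to 3 reads a library by counting error alone, and at most 4.55 depth-normalized reads in a library of the fresh media. Of 11 tested adaptors and kinases of nucleic acid sensing, 6 rose and 4 fell, from the endosomal RNA sensor gene Tlr7 (2.17) to the adaptor gene Ticam1 (-0.48). Of 8 other interferon regulatory factor genes and their binding proteins, 4 rose and 3 fell. None of those that rose did so by 2-fold, with Irf2bp2, a corepressor, highest (0.92), and 2 of those that fell did so by at least 2-fold.

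Further interferon-induced genes were read against the same 43.3% higher and 42.3% lower of all genes. Of 14 tested guanylate-binding and immunity-related GTPases, 10 rose and 3 fell on removal with a median of 0.53, from Gbp11 (2.01) to Gbp10 (-1.21). Of 47 tested antiviral and interferon-induced genes outside the members, 23 rose, 22 fell and 2 were not called (median -0.0094), close to the shares of all genes. The chemokine gene Cxcl10 stood highest and Ifitm1, a relative of Ifitm3, lowest (4.99 and -2.63). Of 20 tested genes of MHC class I and antigen processing, 8 rose and 11 fell (median -0.26). H2-Q4, a class I gene, rose by 0.82 and Psme2, a proteasome activator subunit, fell by 1.17. Genes chosen here after their values were seen show how this list was split. The class I heavy chain genes H2-K1 (0.73) and H2-D1 (0.50) rose, while the immunoproteasome subunit genes Psmb8 (-0.76), Psmb9 (-1.10) and Psmb10 (-0.85) and B2m (-0.70), the light chain gene, fell.

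In supplemented supernatant over complete fresh medium, where 32.5% of all genes were higher and 32.5% lower, the lists were split as follows. Of the GTPases 11 were higher and 1 lower (median 0.24), and of the 47 other antiviral genes 6 were higher and 30 lower (median -0.19). Of the interferons, receptors and kinases 2 were higher and 5 lower, and of the MHC class I genes 4 were higher and 9 lower. On methionine addition to supernatant 41.8% of all genes were higher and 41.8% lower. There 3 GTPases were higher and 9 lower, and 16 of the other antiviral genes were higher and 30 lower.

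**Figure D5:**
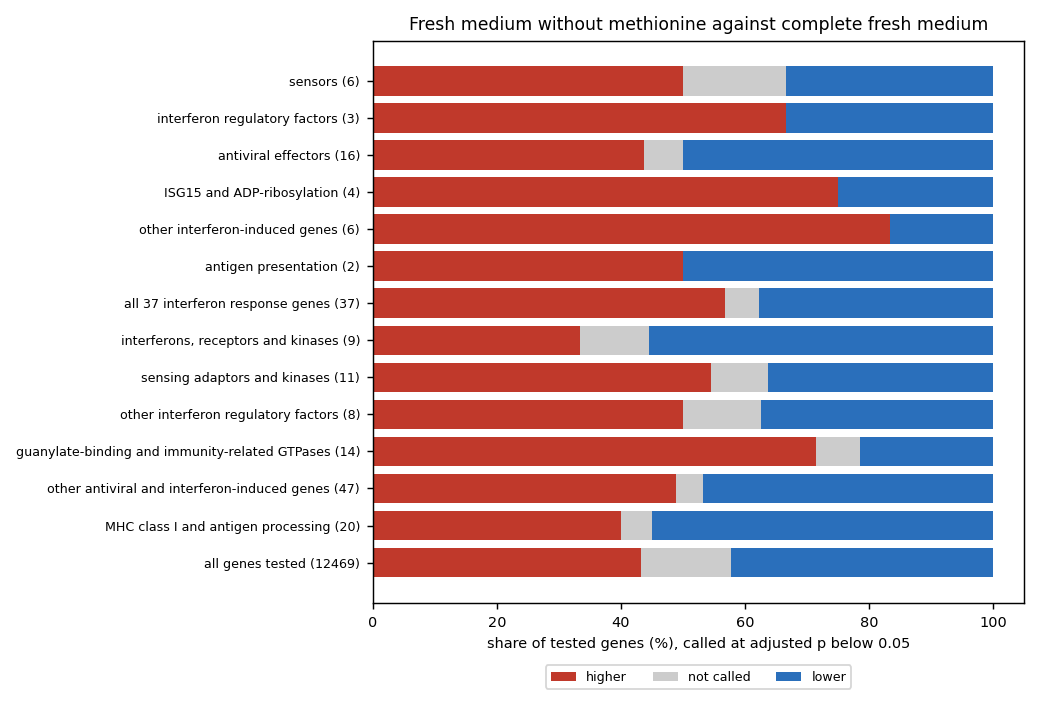
Share of tested genes called higher, not called and called lower in methionine-free against complete fresh medium, for each role group of the 37 genes, for other lists of the interferon pathway and for all 12469 genes, with the number tested in brackets. Each list holds genes of both directions, as do all genes tested.

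The 8 markers of CD8+ T cells were all expressed, and their summed level was 292449 to 311040.5 reads in supplemented supernatant, 223311 to 231277 in supernatant, 192235 to 199041 in methionine-free and 248969 to 259984 in complete fresh medium. Gzmb (granzyme B) was the largest part of it. On methionine removal 5 of the 8 fell, namely Cd3g (-1.68), Lck (-1.28), Cd3e (-0.83), Cd3d (-0.77) and Gzmb (-0.38), while Cd2 (0.61) and Cd8a (0.32) rose and Cd8b1 was not called (-0.060), with a median log2 fold change of -0.57. These 8 are too few to set against the 43.3% higher and 42.3% lower of all genes.

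Markers of other cells moved with the media, and within most lists they moved in both directions. For 5 B cell markers the sum was 363 to 385 reads in supplemented supernatant, 731 to 858 in supernatant, 778 to 966 in methionine-free and 503 to 542 in complete fresh medium. Cd79a (1.37) and Cd79b (0.68) rose on removal, and Ms4a1 and Pax5 were under a mean of 10 reads in every medium. For 7 myeloid markers the sum was 468 to 551 reads in supplemented supernatant, 398 to 448 in supernatant, 359 to 408 in methionine-free and 556 to 648 in complete fresh medium. It was carried by Cd68 (-1.68) and Fcer1g (-0.48), which fell on removal, whereas Mpeg1 (3.15) and Cd14 (1.60) rose and Itgam was not called (0.39), a median of 0.39. For 5 markers of plasmacytoid dendritic cells, a source of type I interferon, the sum was 611 to 708 reads in supplemented supernatant, 275 to 321 in supernatant, 281 to 316 in methionine-free and 636 to 694 in complete fresh medium. Pacsin1 made up most of it and fell on removal (-1.70), Tlr7 rose (2.17 on removal and 2.49 in supernatant over complete fresh medium), Tlr9 was not called (0.22), and the defining gene Siglech averaged at most 1.68 reads in a medium.

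For 6 melanoma markers the sum was 91.0 to 144 reads in supplemented supernatant, 231 to 257 in supernatant, 257 to 282 in methionine-free and 103 to 134 in complete fresh medium. Pmel (2.57) and Mitf (1.001) rose and Tyr (-0.70) fell on removal in fresh medium. The defining genes Mlana, Dct and Tyrp1 averaged at most 5.31 reads, with Mlana at 0 in supplemented supernatant, Tyrp1 at 0 in both fresh media and Dct at 0 in complete fresh medium. For 5 NK cell markers the sum was 2795 to 2914 reads in supplemented supernatant, 3132 to 3296 in supernatant, 2031 to 2243 in methionine-free and 1426 to 1559 in complete fresh medium. Klre1 (1.15) and Eomes (0.32) rose on removal, Klrb1c (-2.03) fell and Ncr1 was not called (0.80). For 5 CD4 T cell markers the sum was 11101 to 13404 reads in supplemented supernatant, 23368 to 25418 in supernatant, 20339 to 22603 in methionine-free and 20701 to 22646 in complete fresh medium. Most of it was Ctla4, which fell on removal (-0.19), while Foxp3 (1.92), Zbtb7b (1.04) and Cd40lg (0.73) rose and Cd4 was not called (-0.16), a median of 0.73. The part of other cells in the changes of the interferon response genes was not tested.

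On GRCm38, per GENCODE M21, Dhx58 lies on chromosome 11 from 100694884 to 100704271, Mx2 on chromosome 16 from 97535308 to 97560900, Irf7 on chromosome 7 from 141262706 to 141266481, Irf9 on chromosome 14 from 55603571 to 55610030, Isg15 on chromosome 4 from 156199424 to 156200818 and Rtp4 on chromosome 16 from 23520291 to 23614222. Exons of 13 of the 37 members overlap those of another annotated gene, 10 of them on the opposite strand and 3 on the same strand. Those on the same strand are Irf9, Parp14 and Rtp4. The values of all 13 may hold reads of their neighbours.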

How the data were processed

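RNA was sequenced from 16 libraries, 4 for each of 4 media. The submitters' processing notes name Cuffdiff 2.2.1, Cufflinks, TopHat2 2.0.13, Bowtie2 2.2.1 and FastQC 0.11.3, and the build GRCm38 (mm10). The counting tool, annotation and strand setting are not given in the sources used here. The authors deposited a depth-normalized signal per gene and library, which by its steps equals read numbers scaled with 1 factor for each library (100% of values came out whole within 0.001). They also deposited FPKM for 23107 genes. Columns were matched to libraries by name. Values were analysed as log2(signal + 1) in 1 limma 3.58.1 model (R 4.3.3) with a mean-variance trend and 4 group means, over 12469 genes that averaged 10 or more. Tests were two-sided and checked on simulated data. Reads numbered 25.8 to 42.3 M per library, and 21 pairs of libraries within a medium differed by a mean chi-square of 2.65 to 9.01 a gene, above the 1 of counting error.

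The members and lists were chosen with earlier results of these data known. Values in every library are given for the interferon regulatory factors and for the member with the highest and the lowest fold change of each role group in the first 3 comparisons, and the highest and lowest called genes are named from each other list; some genes of these and the marker lists are not reported here. Alternatives changed the pseudocount, filter, scaling, test (edgeR 4.0.16 on 15 libraries with recovered reads, since the step of the remaining library was too close to 1), table, replicate block and libraries used.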

Additional observations from a re-analysis of the deposited data

Results flagged for a closer look

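In 8 of 148 sets of 4 libraries of 1 medium, the highest or lowest library stood far from the other 3, and chance gives this in about 1 in 20 sets. Bst2 had 1817.5 reads in replicate 3 of supernatant, below 1864 to 1873 in the others. Ifih1 had 624 reads in replicate 0 of methionine-free fresh medium, above 602 to 605. Irf1 had 7305 reads in replicate 0 of supplemented supernatant, above 6774 to 6825. In complete fresh medium, Irf9 had 1675 reads in replicate 1, below 1794 to 1819, Isg15 had 68.8 reads in replicate 3, above 42.3 to 46.8, and Isg20 had 890.4 in replicate 0, above 787 to 801. Mx2 had 58.6 reads in replicate 1 of supernatant, below 71.5 to 72.4, and Parp9 had 3568 in replicate 3 of methionine-free fresh medium, above 3412 to 3436.

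For 24 members the effect of methionine differed between supernatant and fresh medium in limma. Over all genes 52.6% were called, 25.0% positive and 27.6% negative. With the FPKM values the counts of members were 3 positive and 0 negative. The effect was compared as the log2 fold change of supernatant over supplemented supernatant minus that of methionine-free over complete fresh medium. Among sensors it differed by 1.51 for Dhx58, 0.45 for Ifih1, 0.34 for Ddx58, 0.29 for Eif2ak2, 0.28 for Trim25 and -0.27 for Zbp1. Among interferon regulatory factors it was 0.69 for Irf7 and 0.12 for Irf1. Among effectors it was 1.5001 for Rsad2, 1.19 for Mx2, 0.93 for Samd9l, 0.85 for Oas2, 0.58 for Oas3, 0.48 for Cmpk2, 0.32 for Isg20, 0.21 for Ifitm3, 0.21 for Ifit2, 0.16 for Bst2 and -0.13 for Gbp2. Among the rest it was 0.57 for Ifi27l2a, 0.54 for Parp9, 0.17 for Parp14, -0.18 for Nlrc5 and -0.62 for Ifi35.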

How the results depend on the processing

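Counts of members called higher and lower on methionine removal, in supernatant over complete fresh medium, and lower on methionine addition stayed within 1.5 times of those reported under all 12 alternatives and in all fits without 1 library. With the FPKM values 6 members were higher on addition, and 1 was higher and 10 lower in supplemented supernatant over complete fresh medium. The effect of lacking added methionine was more positive in supernatant than in fresh medium for 3 members. With FPKM, limma called 0 members higher and 0 lower in supernatant over methionine-free fresh medium (2 and 2 at an unadjusted p below 0.05). It called 0 with a more negative effect of lacking added methionine in supernatant (1 unadjusted). Over the 12449 genes tested with FPKM, limma called 3592 higher on addition. It called 1011 higher and 1244 lower in supplemented supernatant over complete fresh medium, and 28 higher and 15 lower in supernatant over methionine-free fresh medium. The effect of lacking added methionine was more positive in supernatant for 546 of these genes and more negative for 396. On the reads recovered from the depth-normalized values, edgeR called 4 higher, 6 lower and 4 with a more negative effect. Over all 12469 genes edgeR called 1562 higher, 1532 lower and 3386 with a more negative effect. A fit to the groups compared alone called 7 members higher in supernatant over methionine-free fresh medium, where 1950 of 12469 genes were higher. Fits without 1 library called 2 to 5 members higher, and 1488 to 1642 of the 12469 genes. Ddx58 (0.016) and Gbp3 (0.0082) changed sign in supernatant over complete fresh medium with total-read scaling. The cause of these differences was not tested.

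The labels give no pairing by replicate number. Over 24 same-numbered pairs the correlation of residuals was -0.07 to 0.07, and 5 of 16 libraries resembled their own number most. With a replicate block 21 members were higher and 14 lower on removal, as without it. In the FPKM values the correlation was 0.53 to 0.91, and 16 of 16 libraries resembled their own number most. With the replicate block the FPKM values gave 21 members higher and 14 lower on removal, and 18 lower in supplemented supernatant over complete fresh medium. The effect of lacking added methionine was more positive in supernatant than in fresh medium for 13 members and more negative for 2. Over the 12449 genes tested the counts were 4716 and 5208, 3373, and 2140 and 2123, in the same order. Depth limits Mx2, Ifi44, Oasl2, Ifit3 and Oas2 most, with means under 20 reads in at least 1 medium.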
